A study of Homo sapiens with 18 samples.

Results

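N4-acetylcytidine (ac4C) is an acetylated form of cytidine that NAT10, an acetyltransferase of the nucleolus and the known writer of the mark, places on ribosomal RNA, transfer RNA and messenger RNA. In acetylated RNA immunoprecipitation sequencing (acRIP-seq), fragmented RNA is pulled down with an antibody against ac4C, and regions richer in the pulled-down RNA than in the input RNA are listed as peaks. In coding sequence the mark has been linked to decoding and to mRNA decay, which is why peaks there that go missing when NAT10 is depleted are of interest. The question addressed here is which coding-sequence peaks of control cells had no counterpart after NAT10 knockdown, where they lay, and how the mRNAs that carry them behaved.

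The regions described are the control-only coding-sequence peaks: peaks listed for control cells that share no base, on the same strand, with any peak listed for knockdown cells, on genes expressed in both groups (mean of at least 1 FPKM, fragments scaled by gene length and by library depth), with their spliced midpoint in the coding sequence (CDS) of the gene's longest protein-coding transcript in GENCODE 29 (GRCh38). Members were thus chosen by their measured presence in one peak list and absence from the other, so presence, fold enrichment and peak p-values are given as descriptions with no test. Of the 32705 peaks in both lists, 16892 belonged to the control list, and 4828 of these (28.6%) met the rule, on 3363 of 12264 expressed genes (27.4%). All samples were PANC-1 cells, a human line from a pancreatic ductal carcinoma. By the labels the shCtrl cells carried an empty short hairpin RNA (shRNA) vector, whereas the study's list of oligonucleotides names a non-targeting shRNA, and the control used for these libraries is not settled here. The shNAT10 cells carried an shRNA vector against NAT10, and both vectors were delivered by lentivirus. Each group had 3 RNA-seq libraries, 3 acRIP-seq input libraries and 3 acRIP-seq pulldown libraries, 18 samples in all, but only 1 peak list, so no peak has a replicate value. The model is 1 cell line, which hairpin was used is not named, and nothing states that replicates were separate cultures, so the spread between libraries may be technical.

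The label held in the RNA-seq. NAT10 stood at 31.6, 27.7 and 28.6 FPKM in the shCtrl libraries and at 7.92, 8.43 and 7.90 FPKM in the shNAT10 libraries. The groups were far apart, with a log2 change of -1.84 ± 0.08 (SE, limma on log2 FPKM, adjusted p = 3.9e-05, n = 3 and 3), or 0.279 of the control level. The exact permutation test over the 6 libraries gave p = 0.1, the smallest it can give with 3 against 3. The ductal keratins were present in every library but lower in shNAT10, with KRT8 at 1556 to 2009 FPKM in shCtrl and 711 to 819 in shNAT10, KRT18 at 961 to 1352 and 595 to 653, KRT19 at 259.7 to 373 and 159 to 177, and KRT7 at 6.93 to 10.7 and 4.52 to 5.19. The summed level of 7 markers of leukocytes, endothelium, liver, acinar and islet cells was 0.0125 to 0.221 FPKM in shCtrl and 0 to 0.561 in shNAT10, with CPA1, INS and GCG listed at 0 throughout. Reads recovered from the FPKM values gave depths of 15831720 to 23521762 per library. The library shCtrl 2 stood apart from the other control libraries by gene length, as given beside the RNA-seq results below. The acRIP-seq depth is unknown, since the lists give no counts.

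Sequences are shown for members on NAT10 itself, on genes the study follows, and for the lowest p-value member of at most 300 bases wholly in the CDS, so that the kind of region at issue can be read. They come from GENCODE 29 transcripts (GRCh38) and are spliced, in the 5' to 3' direction of the mRNA. Capitals mark a C followed by any 2 bases, 4 times in a row (a repeat of CNN), a pattern often reported around ac4C.

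NAT10, chr11:34124341-34130884, plus strand, 269 bases in 3 exon blocks, codons 350 to 439 of 1025: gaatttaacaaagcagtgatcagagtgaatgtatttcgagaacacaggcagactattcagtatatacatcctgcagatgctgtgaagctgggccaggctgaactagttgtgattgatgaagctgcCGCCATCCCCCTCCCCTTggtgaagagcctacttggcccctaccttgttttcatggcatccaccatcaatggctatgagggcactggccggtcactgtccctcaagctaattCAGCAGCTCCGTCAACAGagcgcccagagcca
MT-ATP6, chrMT:8852-9059, plus strand, 208 bases in 1 block, codons 109 to 178 of 226: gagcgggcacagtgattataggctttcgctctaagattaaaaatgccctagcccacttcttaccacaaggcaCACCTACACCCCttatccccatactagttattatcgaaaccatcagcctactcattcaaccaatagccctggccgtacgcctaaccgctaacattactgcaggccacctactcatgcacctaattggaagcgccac
BCAR1, chr16:75242814-75242994, minus strand, 181 bases in 1 block, codons 55 to 115 of 888: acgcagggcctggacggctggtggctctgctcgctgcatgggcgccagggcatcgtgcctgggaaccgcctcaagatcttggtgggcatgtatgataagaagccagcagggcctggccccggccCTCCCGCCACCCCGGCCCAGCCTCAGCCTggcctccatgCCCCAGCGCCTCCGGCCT
DIAPH1, chr5:141575099-141576822, minus strand, 180 bases in 3 blocks, codons 444 to 503 of 1250: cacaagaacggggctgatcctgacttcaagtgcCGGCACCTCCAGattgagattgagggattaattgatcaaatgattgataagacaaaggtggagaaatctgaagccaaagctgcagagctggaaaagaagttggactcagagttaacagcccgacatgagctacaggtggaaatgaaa
KDM4A, chr1:43666487-43667035, plus strand, 151 bases in 2 blocks, codons 237 to 287 of 1064: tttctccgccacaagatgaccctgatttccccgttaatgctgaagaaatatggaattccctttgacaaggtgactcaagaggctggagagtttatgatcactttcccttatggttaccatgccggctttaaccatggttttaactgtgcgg
PXN, chr12:120222562-120222711, minus strand, 150 bases in 1 block, codons 176 to 226 of 589: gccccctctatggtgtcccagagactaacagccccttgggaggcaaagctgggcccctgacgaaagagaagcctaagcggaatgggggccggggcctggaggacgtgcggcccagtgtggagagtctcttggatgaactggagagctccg

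The BCAR1 sequence, from the adaptor protein p130Cas, holds 47 bases in such repeats and the NAT10 sequence 36, whereas the PXN sequence, from the focal adhesion protein paxillin, and the KDM4A sequence, from a histone lysine demethylase, hold none. Another KDM4A member of 270 bases, not shown, holds 24 bases in such repeats, and the PPP1R12C member, also not shown, holds 61.

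ITGB5, which encodes the integrin beta5 subunit and is the study's main target, had no member. Its 3 shCtrl peaks all shared bases with shNAT10 peaks, and the list held 7 shNAT10 peaks on the gene. Of its 2 CDS peaks in the shCtrl list, the one at chr3:124773700-124773880 (minus strand, codons 576 to 636 of 799, fold enrichment 8.16, log10 p = -110) touched a shNAT10 peak by exactly 1 base, shown as the capital below, and so fell just outside the rule. The sequence of this peak also holds the CNN repeat, which is not marked by capitals there.
ITGB5, 181 bases in 1 block: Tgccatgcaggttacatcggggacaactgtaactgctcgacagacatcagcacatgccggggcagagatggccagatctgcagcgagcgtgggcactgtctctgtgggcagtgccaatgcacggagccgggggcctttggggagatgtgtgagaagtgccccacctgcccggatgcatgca
Such contacts were a class of their own. Of the 1782 shCtrl CDS peaks with a counterpart, 122 shared exactly 1 base with the shNAT10 list, and 125 shared 10 bases or fewer, while 53 members abutted a shNAT10 peak without sharing a base. Peak bounds lay on a grid: 97.2% of members had a spliced length within 1 base of a multiple of 30. At the expression bound, RAD54B (1.02 FPKM in the lower group), PLEKHA2 (1.02) and NES (1.03) were just inside and ZBTB47 (0.997), ADAMTS1 (0.993) and TBC1D2 (0.990) just outside, and 833 control-only CDS peaks lay on genes below it.

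Control-only peaks made up most of the coding-sequence peaks of the control list, and knockdown-only peaks made up nearly as large a share of the other list. Of 6610 shCtrl CDS peaks on expressed genes, 4828 were control-only, or 73.0% (95% Wilson interval 72.0% to 74.1%, which covers counting error only). Of 6060 shNAT10 CDS peaks, 4269 were absent from the control list, or 70.4% (69.3% to 71.6%). The untranslated regions gave like shares. In the 3' UTR 74.5% of shCtrl peaks (3149 of 4228) and 72.5% of shNAT10 peaks (2820 of 3888) were in 1 list only, and in the 5' UTR 79.8% (301 of 377) and 79.7% (282 of 354). Coding-sequence peaks absent from one list were thus 1.13 times as many in the shCtrl list as in the shNAT10 list, and no replicate list was available to set this difference against.

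**Figure D1:**
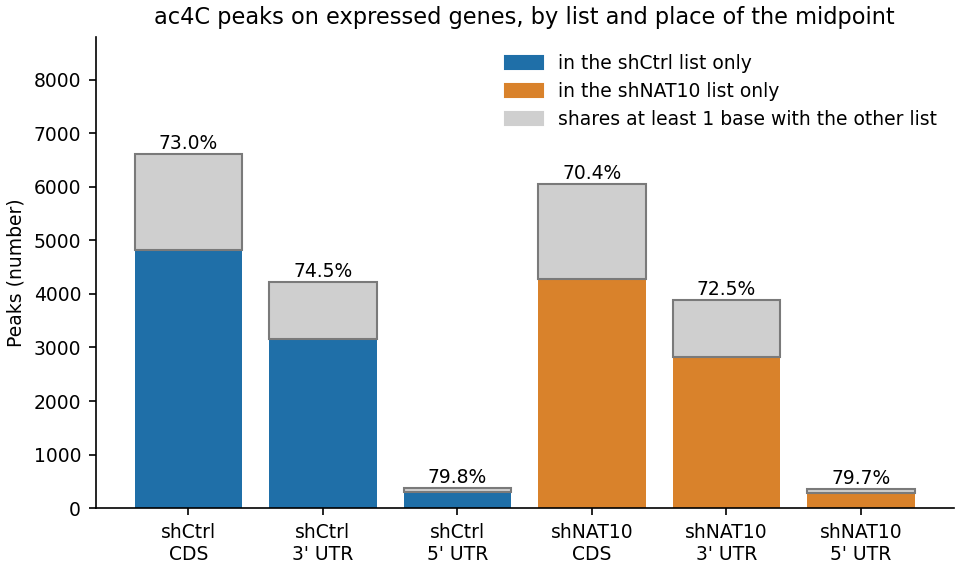
Number of ac4C peaks on expressed genes by list and place of the midpoint, with colour for peaks in 1 list only, grey for peaks that share at least 1 base with the other list, and the percentage in 1 list only above each bar. In the CDS the share is 73.0% for shCtrl and 70.4% for shNAT10, and in both UTRs the lists also lie within a few points of each other.

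Members were short regions of widely spread strength. Their fold enrichment of pulldown over input ranged from 1.21 to 5620 with a median of 30.6 (quartiles 9.59 and 118), against a median of 27.3 for knockdown-only CDS peaks and 21.8 for shared shCtrl CDS peaks. Their median log10 p was -104, close to the -105 of knockdown-only peaks and weaker than the -148 of shared peaks. The median spliced length was 211 bases (quartiles 180 and 270, range 118 to 1380), and shared peaks were longer, with a median of 240 bases. Fold enrichment was over 100 in 1326 members (27.5%) and under 3 in 246 (5.1%), and 34 had a p-value above 0.001. At least 2 exon blocks were listed for 3366 members (69.7%). On the chosen transcript 3170 members (65.7%) lay without a gap, and the others had a gap or overhang against it.

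Whether a control peak was control-only varied with its strength and with the level of its mRNA. The shCtrl CDS peaks were divided into 5 classes by p-value, by fold enrichment or by length. The classes were of about equal size except by length, where they held 1040 to 1606 peaks. The control-only share was 61.5% (58.9% to 64.1%) in the class with the lowest p-values and 80.0% (77.7% to 82.0%) in the class with the highest. By length it was 78.6% for the shortest class and 58.9% for the longest, peaks of over 299 bases. By expression it was 81.1% on genes under 5 FPKM in shCtrl, 77.2% from 5 to 20, 67.4% from 20 to 100 and 47.7% (42.3% to 53.1%, 155 of 325 peaks) above 100 FPKM. Fold enrichment went the other way, from 68.2% in the lowest class to 77.6% in the highest. Peaks of low p-value, of great length or on abundant mRNAs were therefore more often found in both lists, and peaks of high fold enrichment less often. These classes use the values that chose the members and carry no test.

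**Figure D2:**
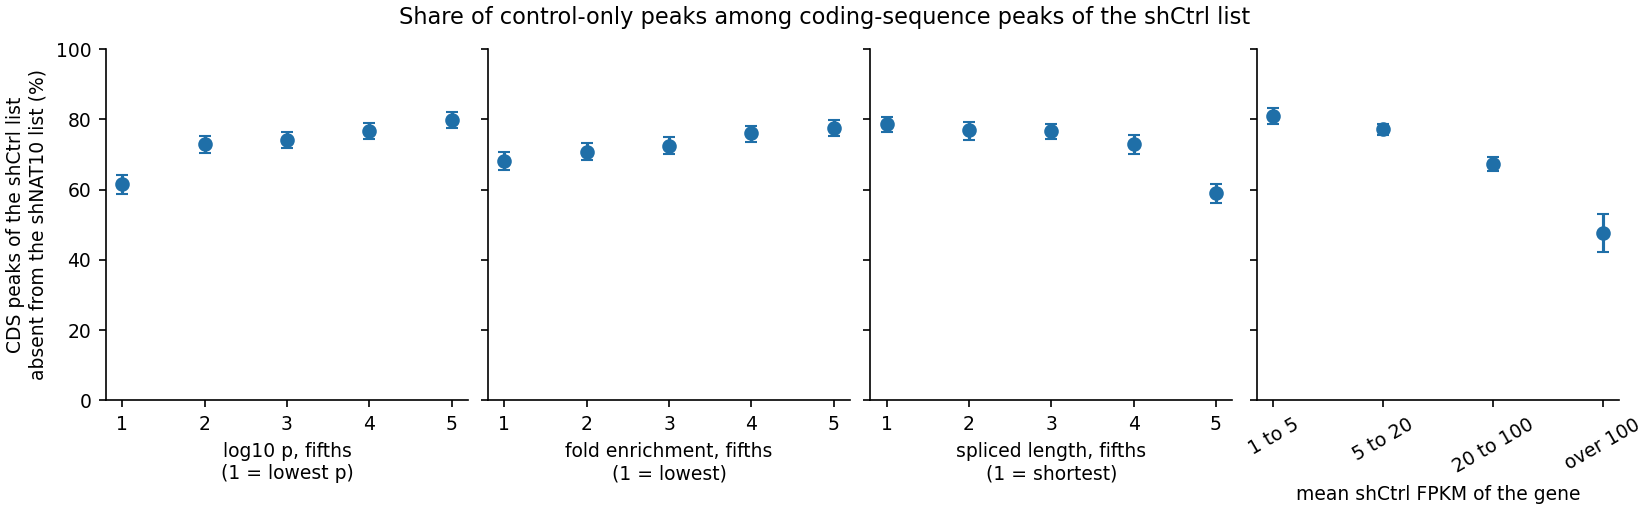
Percentage of shCtrl CDS peaks that are absent from the shNAT10 list, by classes of log10 p, fold enrichment, spliced length and mean shCtrl FPKM of the gene, with 95% Wilson intervals. The share falls from 81.1% on genes under 5 FPKM to 47.7% on genes above 100 FPKM.

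The members with the lowest p-values were on 2 mitochondrial genes, MT-ND3, a subunit of respiratory complex I (317 bases, log10 p = -2770, fold enrichment 2.69), and MT-ATP6, a subunit of ATP synthase (log10 p = -2090, fold enrichment 1.67). Next came ERAP1, an aminopeptidase that trims peptides for class I antigen presentation (690 bases in 7 blocks, log10 p = -1820, fold enrichment 3510), and the translation initiation scaffold EIF4G3 (330 bases, log10 p = -1590, fold enrichment 92.5). Among the others of the lowest 8 were peaks on LGALS3BP, a secreted galectin-3 binding glycoprotein (log10 p = -1480), PTDSS1, a phosphatidylserine synthase (-1400), and CHD4, the ATPase of the NuRD complex (-1260). MT-ND3 had no peak in the shNAT10 list, whereas the other 7 genes kept at least 1 shNAT10 peak elsewhere.

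The highest fold enrichments were on MYLK, which encodes myosin light chain kinase (5620), SETD7, a lysine methyltransferase (4810), CNST (3630), ERAP1 (3510), AP1B1, an adaptor subunit of clathrin coats (3450), COL6A2, a collagen VI chain (3320), the phosphatase gene ILKAP (3130) and ERV3-1, an endogenous retroviral envelope gene (3070). ERAP1 was in both groups of 8. Several of these genes were low in shCtrl, with means of 1.96 FPKM for MYLK, 2.00 for COL6A2, 2.255 for ERV3-1 and 3.71 for SETD7. Of the 8 only AP1B1 (20.4 FPKM) lay above the median of 13.2 over genes with a member. The part of low input RNA in these ratios was not tested. The ERV3-1 peak lay 29 bases from a shNAT10 peak and the COL6A2 peak 111 bases, while the SETD7 peak lay 2338 bases from the nearest.

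Most genes with a member had another peak in the shNAT10 list. Of the 3363 genes, 2267 (67.4%) had at least 1 peak in the shNAT10 list, 1308 (38.9%) had a knockdown-only CDS peak and 623 (18.5%) also had a shared CDS peak, and 1096 (32.6%) had no shNAT10 peak. Among the 4828 members, 3214 (66.6%) had a shNAT10 peak on the same spliced transcript, at a median gap of 513 bases. The gap was at most 50 bases for 4.6% of members, at most 200 for 16.1% and at most 1000 for 48.0%. Knockdown-only CDS peaks were placed alike against the shCtrl list: 68.5% had a shCtrl peak on the transcript, at a median gap of 490 bases, and 17.4% within 200 bases.

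Most genes with a member had only 1. Of the genes, 2348 had 1 member, 715 had 2 and 300 had 3 or more. LRP1, a large endocytic receptor, had the most with 11, of fold enrichment 65.8 to 1120, spread from 4.5% to 99.2% of its 4544 codons. It had 16 peaks in the shCtrl list and 9 in the shNAT10 list, and 4 of the 11 members lay within 200 bases of a shNAT10 peak. DOCK10, an activator of small GTPases, had 7 members (32.4 to 1300), 4 of them within 200 bases of a shNAT10 peak. HTT, which encodes huntingtin, had 7 (3.6 to 447) from 15.5% to 91.2% of the CDS, and its shCtrl count of 8 peaks stood against 1 in the shNAT10 list. LYST, a lysosomal trafficking regulator, had 7, with 16 shCtrl and 11 shNAT10 peaks. MACF1, a giant crosslinker of actin and microtubules, had 7 of its 14 shCtrl peaks as members, none within 200 bases of a shNAT10 peak. In all 13 genes had 6 or more members, and the ties at 6 were cut by symbol, so that CHD4, the protocadherin FAT1 and the Ras regulator NF1 are described of those with 6. FAT1 had 15 peaks in each list, and NF1 had 8 and 3.

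Genes that the study follows fell on both sides. NAT10 had 3 shCtrl peaks, all members (fold enrichment 11.7 to 210, log10 p from -27.9 to -285), and no shNAT10 peak. MBD4, a DNA glycosylase, had 2 shCtrl peaks, both members with fold enrichment 208 and 434, and no shNAT10 peak. PXN had 3 shCtrl peaks, of which the CDS peak (2.70) was the member, and no shNAT10 peak. KDM4A had 3 members (35.1, 38.8 and 43.1) among 6 shCtrl peaks, against 2 shNAT10 peaks. DIAPH1, a formin that nucleates actin filaments, had 3 members (8.16 to 13.9), with 6 shCtrl and 5 shNAT10 peaks. BCAR1 (6.09), the RNA helicase gene DHX30 (6.92) and PPP1R12C (10.8), a myosin phosphatase regulator, had 1 member each and kept shNAT10 peaks, 1 on BCAR1 and 2 on each of the others. JUN and CDC42 had none, since each CDS peak of theirs in the shCtrl list overlapped a shNAT10 peak.

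Members were spread along the coding sequence. In 10 equal parts of the CDS between 8.6% and 11.04% of them were found, the lowest being the part next to the start codon (8.6%, 95% Wilson interval 7.9% to 9.4%), and 48.8% had their midpoint before the middle of the CDS. Knockdown-only peaks gave 49.1% and shared peaks 48.5% before the middle. The part next to the start codon was the lowest in these sets as well, at 8.4% and 7.7%. The start codon was crossed by 256 members (5.3%) and the end of the CDS by 283 (5.9%). Of the members without a gap on the transcript 65.0% spanned an exon junction, against 65.6% of knockdown-only and 71.0% of shared peaks.

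Cytidine content differed little between members and the rest of the same coding sequences. Acetylation of cytidine at codon position 3 (the wobble base) has been linked to decoding, so codons ending in C were counted in 3140 members with at least 20 whole codons. They made up 26.80% of 228585 codons in members and 26.84% in the parts of the same CDS outside any listed peak. The share at position 1 was 24.3% against 24.4% and at position 2 23.9% against 23.4%. Knockdown-only peaks gave 26.7% and 26.7% at position 3, and shared peaks 27.3% and 27.9%. The CNN repeat occurred in 56.0% of 3015 members (54.2% to 57.8%), against 53.7% (51.9% to 55.5%) of the nearest windows of the same length outside peaks in the same CDS. For knockdown-only peaks the values were 54.1% and 52.4%, and for shared peaks 55.8% and 55.0%. Only the mRNA strand was searched, and overlapping repeats counted as 1. Guanine plus cytosine made up 50.6% of members and 50.3% of windows.

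The RNA-seq change between groups did not choose the members, but their genes had to reach a mean of 1 FPKM in both groups. The change was tested with limma on log2(FPKM + 0.1), on which scale changes of low genes are understated. The 12982 genes tested needed only 1 FPKM in any 3 libraries. They thus include genes below that mean in a group, which cannot have a member. The part of this filter in the shares below was not tested. In bulk RNA, fewer cells that express a gene and less RNA per cell cannot be told apart. Among genes with a member, 616 of 3363 (18.3%) had lower mRNA in shNAT10 at an adjusted p under 0.05, against 21.2% of all genes tested, and 898 (26.7%) had higher mRNA, against 20.8%. With a log2 change beyond 1 as well, 62 were lower (1.84%, against 3.57% of all genes) and 92 higher (2.74%, against 2.91%). The median log2 change was 0.07 over genes with a member and -0.01 over all genes. Lower levels were thus not more frequent among genes with a member than among all genes tested. Of the calls among genes with a member 40.7% were lower, and rescaling to TPM (transcripts scaled to a fixed sum per library) gave 28.2%, with 425 lower and 1080 higher, while the share over all genes went from 50.5% to 38.2%. The 1096 of them without any shNAT10 peak had a median of 0.01 (19.3% lower, 23.0% higher), and the 2267 that kept a shNAT10 peak had 0.09 (17.9% and 28.5%). Without the library shCtrl 2 the latter median was 0.035 (24.7% and 34.0%). Genes with a knockdown-only CDS peak and no member had a median of -0.03 (24.2% and 20.7% of 1771).

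The medians went with the number of members and with the length of the CDS. Genes with 1 member had a median of 0.03, those with 2 had 0.10 and those with 3 or more had 0.22, where 33 of 300 were lower and 89 higher. Genes with a member had a median CDS of 1872 bases, against 1194 bases for expressed coding genes without one. In 4 classes of CDS length of about equal size, genes with a member had medians of -0.12, -0.04, 0.03 and 0.19 from the shortest to the longest class, and genes without one -0.15, -0.06, 0.00 and 0.10. The share of genes with a member grew from 15.4% to 52.3% over these classes. In the library shCtrl 2 the levels also went with length. Over genes with 3 or more members its median stood at -0.31 log2 units against the genes' mean of 6 libraries, whereas shCtrl 1 and shCtrl 3 stood at 0.06 and -0.05 and the shNAT10 libraries at 0.07 to 0.14. Without shCtrl 2 the medians were 0.027 over all genes with a member, 0.08 over those with 3 or more, and 0.07 and 0.02 in the longest class with and without a member, with 24.2% of member genes lower and 32.5% higher, against 25.1% and 26.1% of all genes in the same fit. The part of RNA quality or of this library in the length pattern was not tested.

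**Figure D3:**
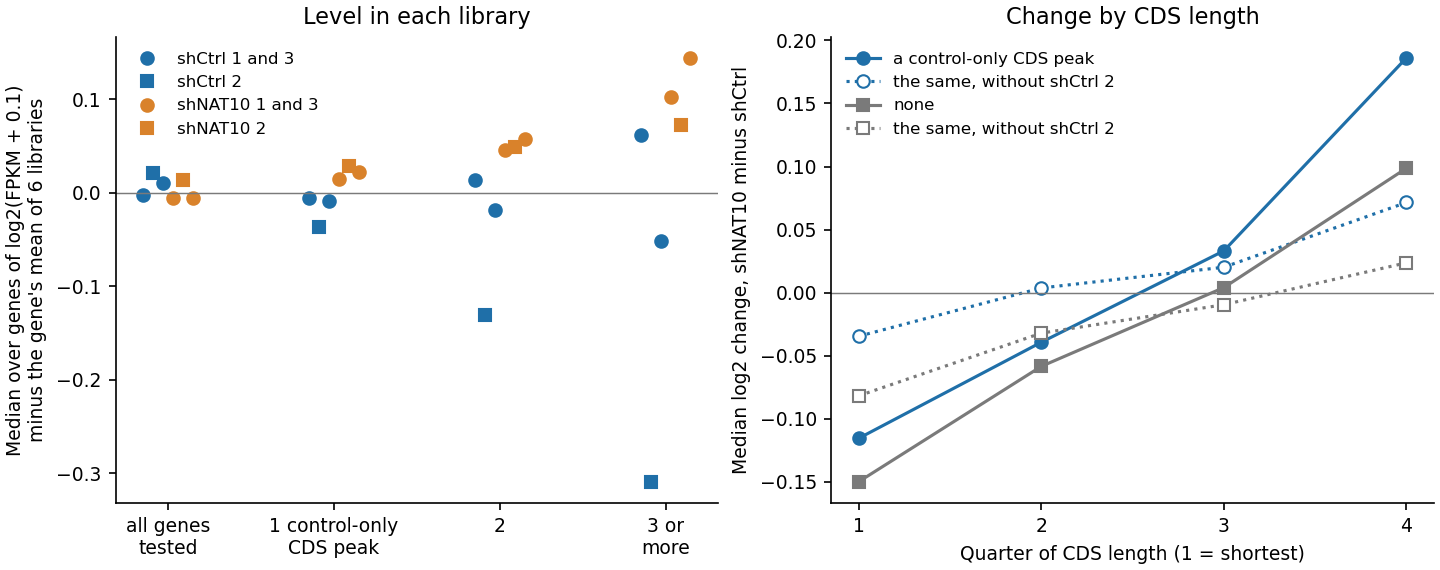
Left, median over genes of the log2 level in each of the 6 libraries relative to the gene's mean, for all genes tested and by number of control-only CDS peaks; the library shCtrl 2 lies at -0.31 for genes with 3 or more. Right, median log2 change, shNAT10 minus shCtrl, in 4 classes of CDS length for genes with and without a control-only CDS peak, with all libraries (filled) and without shCtrl 2 (open).

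Single genes moved far in either direction. Besides NAT10, the deepest fall among genes with a member was on LRRC8B, a subunit of volume-regulated anion channels, at 12.3, 7.77 and 10.8 FPKM in shCtrl and 1.83, 2.06 and 2.34 in shNAT10 (log2 change -2.24 ± 0.18 SE, limma adjusted p = 2.2e-04). LGALS3BP, which carried a member of the lowest p-values, stood at 30.6, 41.3 and 36.0 FPKM in shCtrl and at 7.80, 8.41 and 7.90 in shNAT10 (-2.14 ± 0.11, limma adjusted p = 5.7e-05). ECHDC1, a metabolite-proofreading decarboxylase, stood at 44.7, 51.95 and 49.95 against 10.4, 11.8 and 12.1 FPKM (-2.09 ± 0.09, limma adjusted p = 4.3e-05). In these 3 genes every shNAT10 library lay below every shCtrl library. ABT1 (-1.96), VSIR, the immune checkpoint VISTA (-1.85), the sphingolipid enzyme gene SAMD8 (-1.85), HNRNPA1P48 (-1.80), the lysine-catabolism enzyme gene ALDH7A1 (-1.79) and TAP2, a subunit of the transporter that loads antigenic peptides (-1.75), completed the 10 largest falls. HNRNPA1P48 is named as a pseudogene copy of HNRNPA1, with which it may share reads.

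The largest rise was on SETD7, which carried 3 members, including that of the second highest fold enrichment. It stood at 4.74, 2.42 and 3.98 FPKM in shCtrl and at 21.0, 21.1 and 22.6 in shNAT10, a 5.89-fold rise (log2 change 2.56 ± 0.22 SE, limma adjusted p = 2.8e-04). AREG, which encodes the EGF receptor ligand amphiregulin, stood at 1.35, 1.40 and 1.20 against 7.33, 8.01 and 8.80 FPKM (2.52 ± 0.11, limma adjusted p = 4.4e-05). Its single member was weak, with log10 p = -2.78 and fold enrichment 10.8, and its shCtrl level was near the expression bound. The kinesin gene KIF1C stood at 5.97, 6.17 and 5.45 against 26.3, 26.0 and 24.3 FPKM (2.11 ± 0.08, limma adjusted p = 3.5e-05). The groups did not overlap in any of the 3. The arginine methyltransferase gene PRMT6 (1.99), the tropomyosin gene TPM4 (1.95), the nucleolar phosphoprotein gene NOLC1 (1.81), the glucosidase II gene GANAB (1.73), the Rap1 activator gene RAPGEF1 (1.69), OGFR (1.62) and the zinc finger gene ZKSCAN1 (1.58) followed. A peak that left the list thus sat on mRNAs that fell, as in LGALS3BP, and on mRNAs that rose, as in SETD7. All 616 lower and 898 higher calls had groups that did not overlap. The same count was not made for the calls over all genes tested, so it cannot be read as a trait of genes with a member.

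**Figure D4:**
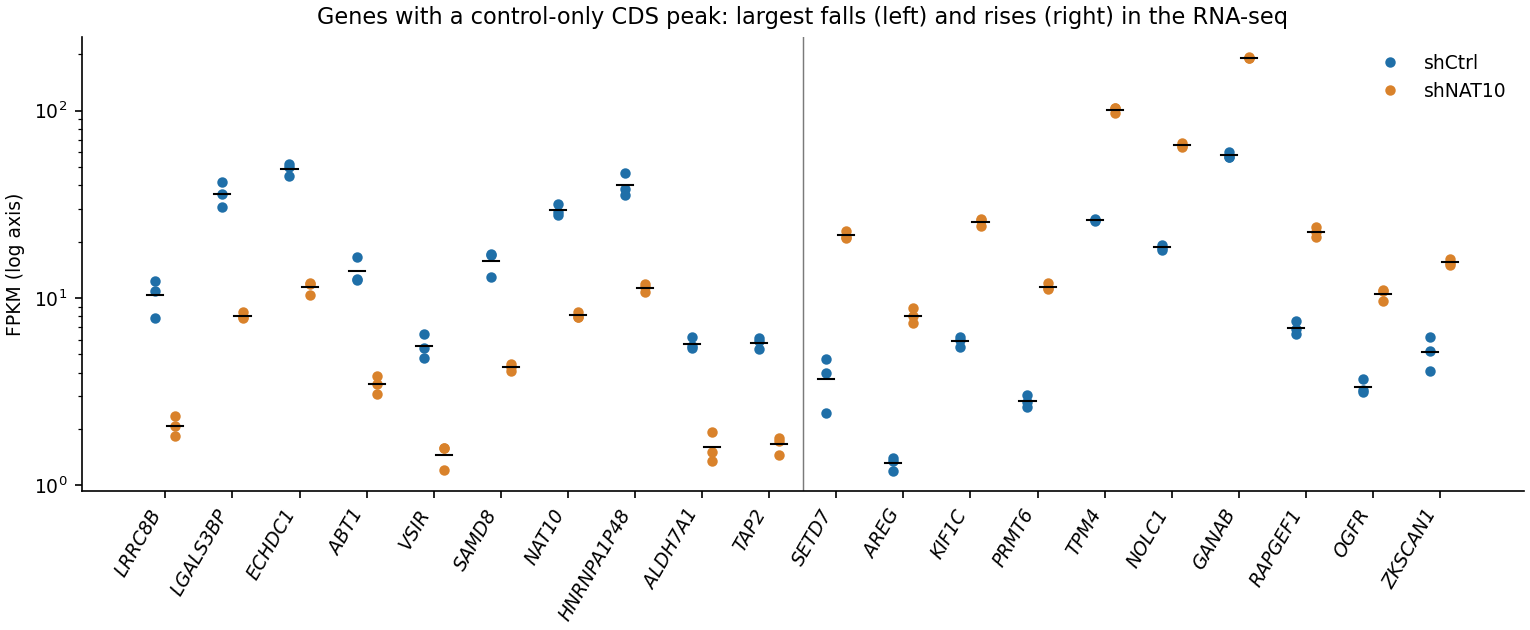
FPKM on a log axis in each of the 3 shCtrl and 3 shNAT10 libraries, with the group mean as a bar, for the genes with a control-only CDS peak that fell most (left) and rose most (right). The groups do not overlap in any of these genes.

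Genes carrying the other members named above moved little or in both directions. MT-ND3 fell (1787 ± 323 to 1055 ± 46.3 FPKM, SD, n = 3 each, log2 change -0.75, limma adjusted p = 0.0038) and so did MT-ATP6 (-0.37, limma adjusted p = 0.0093) and PTDSS1 (-0.28, limma adjusted p = 0.014). At this threshold ERAP1 (-0.36), EIF4G3 (0.36), CHD4 (0.13), MYLK (0.56), CNST (-0.02), COL6A2 (-0.36) and ERV3-1 (0.76) did not pass the test, of which ERAP1 and MYLK (both at limma adjusted p = 0.053) passed with quantile normalization, median centring or voom. AP1B1 (0.25, limma adjusted p = 0.048) and ILKAP (-0.33, limma adjusted p = 0.029) passed it by little. With all libraries 0 of the 13 genes with 6 or more members passed in limma (1 at an unadjusted p under 0.05, and 0 of the 10 tested with voom). Of the 8 described above LRP1 was at 7.51 ± 2.03 and 7.26 ± 0.194 FPKM (SD, n = 3 each, log2 change -0.01), HTT at 0.33, MACF1 at 0.68, FAT1 at 0.54, LYST at 0.53, NF1 at 0.39 and DOCK10 at -0.05. In each of these 8 genes the shCtrl libraries spread more widely than the shNAT10 libraries, as in MACF1 with 21.5 ± 8.63 against 32.7 ± 2.53 FPKM, and shCtrl 2 was the lowest library. Without shCtrl 1, 4 of these 8 passed in limma, namely FAT1 (0.84, adjusted p = 0.024), HTT (0.48, adjusted p = 0.019), LYST (0.77, adjusted p = 0.02) and MACF1 (0.97, adjusted p = 0.0093). That fit keeps shCtrl 2, and each of these 4 genes passed in only 1 of the 6 fits that leave out a library. Over those fits their lowest log2 changes were 0.18, 0.17, 0.23 and 0.36 in the same order.

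Among the genes the study follows, BCAR1 fell from 27.2 ± 3.03 to 15.8 ± 0.686 FPKM (SD, n = 3 each, log2 change -0.78, limma adjusted p = 9.3e-04), as did MBD4 (-0.48, limma adjusted p = 0.0052), DHX30 (-0.36, limma adjusted p = 0.012) and KDM4A (-0.26, limma adjusted p = 0.027). DIAPH1 rose from 16.3 ± 1.03 to 26.1 ± 0.626 FPKM (0.68, limma adjusted p = 5.7e-04) and PPP1R12C rose by less (0.36, limma adjusted p = 0.041). PXN stood at 80.7 ± 1.18 and 77.5 ± 1.30 FPKM (-0.06, limma adjusted p = 0.44). Without a member, ITGB5 (-0.66, limma adjusted p = 9.0e-04) and CDC42 (-0.74, limma adjusted p = 4.2e-04) fell, and JUN was at -0.09 (limma adjusted p = 0.46).

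Members were counted on 16 lists of genes, without a test of enrichment. Over all expressed genes 27.4% had a member, and the lists ranged from 19.0% to 75%, leaving out the list of 2 genes below. The 27.4% is a low baseline, since it includes genes without a coding transcript, and 3363 of 10679 expressed coding genes had a member. Among coding genes the share was 15.4% in the shortest class of CDS length and 52.3% in the longest. Of 81 expressed genes of focal adhesion and integrin signalling, 38 had a member (46.9%, 66 members), 31 had a knockdown-only CDS peak, and of the 38, 7 fell and 10 rose (median log2 change 0.04). Over all 81, with or without a member, 25 fell and 17 rose (median -0.06), and over all genes tested 21.2% fell and 20.8% rose. Without shCtrl 2 the median turned to -0.05, with 14 lower and 11 higher. Examples are RAPGEF1 (1.69), ARHGAP35 (0.94), the phosphoinositide kinase subunit PIK3R3 (-0.995) and TLN2, which encodes talin 2 (-0.98). Of 27 expressed extracellular matrix genes, 15 had a member (40 members), of which 4 fell and 7 rose (median 0.21), with rises of the collagen gene COL5A2 (1.38), TNC, which encodes tenascin C (1.04), and COL12A1 (0.93), and a fall of COL6A1 (-0.79). The list of cytoskeletal giants, spectrins and plakins had a member on 21 of 28 expressed genes (52 members), of which 1 fell, TLN2, and 9 rose (median 0.40), among them the myosins MYO9B (0.92), MYO18A (0.90) and MYO5A (0.89). Kinesin and dynein motors had a member on 22 of 34 genes (28 members), of which 4 fell and 12 rose (median 0.34), with KIF1C (2.11), KIF20B (0.98) and KIF1A (0.90) rising and KIF2A (-0.91) falling. Without shCtrl 2 the medians of these 3 lists were 0.12, 0.20 and 0.26. Over all expressed matrix genes, with or without a member, 7 fell and 9 rose (median 0.03). Likewise 2 of all cytoskeletal giants fell and 11 rose (0.41), and 5 of all motors fell and 17 rose (0.27). Whether CDS length accounts for the shares or the medians of the lists was not tested.

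The lowest share of genes with a member was that of the cytosolic ribosomal proteins, at 19.0%, or 15 of 79 genes (19 members). Of these 3 fell, among them RPS7 (-1.29) and RPS3A (-0.35), and 0 rose by limma (median -0.26), with 0 rising also at an unadjusted p under 0.05 and with voom. Without shCtrl 2 the median was -0.12 and 1 rose. Over all 79 of these genes, with or without a member, 32 fell and 0 rose (median -0.35). Aminoacyl-tRNA synthetases had a member on 15 of 37 genes (17 members), 5 lower and 6 higher (median 0.07), with FARSA (-0.84), WARS (-0.53), IARS2 (0.53) and KARS (0.51), and their median without shCtrl 2 was 0.0079. Translation factors had a member on 20 of 44 genes (31 members), 3 lower and 8 higher (median 0.21), with rises of the initiation factor 3 subunits EIF3F (0.91), EIF3A (0.61) and EIF3B (0.60) and of the release factor gene GSPT1 (0.51), and without shCtrl 2 there were 13 higher. RNA helicases had a member on 25 of 46 genes (38 members), 4 lower and 4 higher (median 0.08), with DDX56 (-1.02), DDX52 (-0.84), SKIV2L (0.67) and DDX24 (0.65), and without shCtrl 2 there were 8 higher and the median was 0.032. Splicing factors had a member on 17 of 51 genes (35 members), against 26 with a knockdown-only CDS peak, 2 lower and 4 higher (median 0.03), with SF3B2 (0.82), HNRNPH3 (0.67), PRPF19 (0.41) and HNRNPK (-0.34). Without shCtrl 2 their median turned to -0.02, with 5 lower and 5 higher. Over all expressed synthetases, with or without a member, 9 fell and 11 rose (median -0.09), and over all translation factors 10 and 11 (0.05). Over all helicases 4 fell and 6 rose (0.01), and over all splicing factors 14 and 7 (-0.03).

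Among nuclear and enzyme lists, lysine methyltransferases and demethylases had a member on 27 of 49 genes (49 members), 3 lower and 11 higher (median 0.36), with SETD7 (2.56), KDM2A (1.18), KDM2B (1.14) and SUV39H2 (0.83), and their median without shCtrl 2 was 0.18. DNA repair genes had a member on 32 of 69 (53 members), 4 lower and 7 higher (median 0.14), with MDC1 (0.89), MPG (-0.81), FANCI (0.80) and NEIL3 (0.61), and 7 were lower without shCtrl 2. Nuclear pore and transport genes had a member on 29 of 53 (51 members), 2 lower and 6 higher (median 0.08), with NUP210 (0.55), NUP155 (-0.45), CSE1L (0.44) and SEC13 (0.44), and 5 were lower without shCtrl 2 (median 0.0081) but 0 with TPM by limma (1 at an unadjusted p under 0.05). HECT, cullin and large ubiquitin ligases had a member on 22 of 32 genes (50 members), 0 lower and 7 higher by limma (median 0.38, with 0 lower also at an unadjusted p under 0.05 and with voom, and a median of 0.13 without shCtrl 2), with UBE3A (1.27), WWP2 (1.07) and CUL9 (0.48). Chaperones had a member on 24 of 44 genes (33 members), 2 lower and 11 higher (median 0.19), with HSP90AA1 (0.79), CCT5 (0.63), P4HB (0.55) and CCT4 (-0.38). Glycolysis and lipid synthesis genes had a member on 17 of 39 (26 members), 4 lower and 5 higher (median 0.12), with PFKL (0.91), LDHB (-0.78), HMGCS1 (-0.76) and INSIG1 (0.73). Over all expressed genes of these lists, with or without a member, 5 methyltransferases and demethylases fell and 15 rose (median 0.14). The counts were 7 and 18 for DNA repair (0.19) and 6 and 14 for nuclear pore and transport (0.12). For the ubiquitin ligases they were 1 and 10 (0.33), for chaperones 3 and 15 (0.03), and for glycolysis and lipid synthesis 11 and 11 (-0.01). The 2 genes listed for ac4C and RNA acetylation fell, and of these only NAT10, the target of the shRNA, had members.

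Many genes were named for the size of their change in these data, so the counts here do not describe all calls. Of the 86 genes with a member that the naming rule took and that passed the test, 71 passed it with every library left out in turn. Among the other 15 were AP1B1, COL12A1, DHX30, ILKAP, KDM4A, MT-ATP6, MYO5A, NEIL3, NUP155, PPP1R12C, PTDSS1, RPS3A and SEC13. For some named genes a second gene annotated on their strand covers part of the exons, so that their values are uncertain: CDC42 (57.1% of its exon bases), CHD4 (46.9%), KDM4A (40.2%), LDHB (33.4%), TAP2 (32.3%) and PIK3R3 (17.4%).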

How the data were processed

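PANC-1 cells were profiled by RNA-seq (6 libraries) and acRIP-seq (12 libraries), and the members and gene lists were chosen with earlier results of these data known. The authors deposited gene values as FPKM and 1 peak list per group with fold enrichment of pulldown over input (a ratio), a p-value and a log10 p score for each peak. Per the labels' processing notes, HISAT2 2, HTSeq 0.11.0, DESeq2 1.22.2 and the builds hg38 and GRCh38 were used, while the peak caller and the pooling of replicates are not given in the sources used here. Of the inner block starts of members 92.7% lie on an exon start of a GENCODE 29 coding transcript. FPKM values were tested with limma 3.58.1 (R 4.3.3) with a mean-variance trend on log2(FPKM + 0.1), for genes with at least 1 FPKM in 3 or more libraries (Benjamini-Hochberg adjustment), and scripts were tested on simulated data. Whole reads were recovered for 96.9% of values above 0 (tolerance 0.01 reads). Peaks named are the 8 of lowest p-value, the 8 of highest fold enrichment, those on the 8 genes with most members (ties by symbol) and those on genes the study names; genes named are the 10 largest falls and rises among calls with groups that do not overlap, and up to 4 a list by size of change. The sequences shown, other than that of MT-ATP6, and the peaks on NAT10 were chosen after their values were seen. Codon counts needed 20 codons in a peak and 50 in the rest of the CDS. Some genes that the rule names are not reported here.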

Additional observations from a re-analysis of the deposited data

How the results depend on the processing

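The number of control-only CDS peaks fell from 4828 to 2245 and that of their genes from 3363 to 1859 with the 50% of the shCtrl list of lowest p-values, and to 1941 and 1589 with the 50% of highest fold enrichment, since fewer peaks enter; the other rules gave 3877 to 5719 peaks and 2655 to 4007 genes. The share of genes that kept a shNAT10 peak was 70.7% with a reciprocal overlap of 50%, 62.7% with no shNAT10 peak within 200 bases, 69.6% and 63.9% with those subsets, 70.9% with a mean FPKM of at least 5 and 64.3% with none. At the highest fold enrichment the median log2 change of the genes was 0.11, with 16.6% lower and 29.5% higher. Codons ending in C made up 26.23%, 27.82% and 26.59% in the members of lowest p, of highest fold enrichment and wholly in the CDS (26.29%, 27.67% and 26.76% in the rest), and the CNN repeat was in 60.7% at the highest fold enrichment (windows 58.6%). Rescaling to TPM moved the median of all genes from -0.01 to 0.10 and that of genes with a member from 0.07 to 0.18, and changed the calls from 2751 lower and 2699 higher to 2075 and 3355 over all genes and from 616 and 898 to 425 and 1080 over genes with a member; the cause was not tested. Leaving out 1 library gave medians of 0.027 to 0.087 (lowest without shCtrl 2), 374 to 814 lower and 604 to 1094 higher genes with a member, and a NAT10 change of -1.88 to -1.79; the count of lower genes dropped to 408 without shCtrl 3, 390 without shNAT10 1 and 374 without shNAT10 3. The replicate numbers did not pair the libraries (correlations of -0.04, 0.06 and 0.11), and the replicate block gave 571 lower and 849 higher genes with a member and NAT10 at -1.84 (limma adjusted p = 0.001). Voom on the recovered reads called 2732 lower and 2725 higher genes, of which 616 and 920 had a member. NAT10 passed under every alternative run. Over 104 named genes 1542 values were recomputed, of which 71 no longer passed, 23 newly passed and 0 reversed. Counting a peak as shared only from 2 bases on (4950 members) and allowing any transcript with a CDS (4689) were added after the data were seen.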
